A study of Mus musculus with 39 samples.

Results

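Cerebellar granule cell progenitors that were left to differentiate in a dish were set against granule cells that matured in the animal. The measurement was made in 14 of the 39 libraries of the series, chosen by their labels. In each gene the log2 fold change in culture was compared with the log2 fold change in vivo, and the genes described are those that changed in 1 system only or in opposite directions.

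The culture groups were primary granule cells from the cerebella of P6 to P7 C57Bl/6J mice, kept for 5 days in vitro with the solvent DMSO (DIV5, 2 libraries), and aliquots of the same kind of cells set aside at isolation (0 days in vitro, DIV0, 2 libraries). The in vivo groups were P21 (5 libraries) and P7 (5 libraries) cerebella of Tg(NeuroD1-Egfp-L10a) mice, strain C57Bl/6J. RNA from these was purified by TRAP, in which ribosomes that carry an EGFP-tagged L10a protein are pulled down with the messages bound to them. The tag is made under Neurod1 regulatory sequence, so it marks differentiating and mature granule cells and not only 1 stage, and the lysate is of whole cerebellum. Culture libraries thus hold total polyadenylated RNA of all cells in the dish over 5 days, and in vivo libraries hold ribosome-bound polyadenylated RNA of tagged cells over 14 days. System, RNA fraction, transgene and length of time cannot be told apart in the comparison of P21 with DIV5 cells. The labels do not say whether the libraries of a group came from separate animals or dishes, so p-values measure the spread between libraries, which may be technical.

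Granule cells are the small excitatory neurons of the cerebellum. Their progenitors, which express Atoh1 (also called Math1) and divide in response to Sonic hedgehog in the first postnatal weeks, leave the cell cycle, migrate inward past Bergmann glia, and form synapses with mossy fibers while they switch on genes such as Gabra6. In a dish the same cells leave the cycle and grow neurites, without mossy fibers, Purkinje cell targets or the layers of the cortex. The series also follows the Polycomb enzymes EZH2 and EZH1, which place the repressive mark H3K27me3, through this maturation.

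Total counts were 16.6 and 21.4 M at DIV5, 15.9 and 23 M at DIV0, 27.5 to 37.2 M at P21 and 23.9 to 38.0 M at P7. The median SD between libraries of a group, on the log2 CPM scale, was 0.08 at DIV5, 0.057 at DIV0, 0.157 at P21 and 0.163 at P7. CPM are counts divided by the TMM-scaled library size, log2 fold changes are DIV5 over DIV0 and P21 over P7, and the difference is the change in culture minus the change in vivo, so a positive difference means a change that is more upward in culture. A change was called where the adjusted p was under 0.05 (edgeR quasi-likelihood test, Benjamini-Hochberg) and the log2 fold change was 1 or more in either direction. A difference was called at an adjusted p under 0.05, with no minimum size. Values after ± are SEs for log2 values. Among the P21 libraries, replicates 2 and 3 stood apart: the chi-square of their counts per degree of freedom was 9.74 between them and 23.3 to 33.5 against the other 3, and their choroid plexus and ependymal markers summed to 144 and 113 CPM, against 1.78 to 2.21 CPM in the other 3. With P21 replicates 1, 4 and 5 alone, a setting added after seeing the data, 655 genes were higher at DIV5 and lower at P21 and 125 had the reverse pattern. The same chi-square per degree of freedom was 1.45 between the DIV0 libraries and 4.95 between the DIV5 libraries. Pairs of libraries gave 7.2 to 33.5 within P21 and 10.8 to 32.5 within P7.

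Of 16455 genes tested, 4050 (24.6%) were higher and 2147 (13%) lower at DIV5 than at DIV0, and 3057 (18.6%) were higher and 3516 (21.4%) lower at P21 than at P7. The difference was above 0 in 6306 genes (38.3%) and below 0 in 4611 (28%). These shares over all genes are the comparison for the list counts below, where P21 and the DMSO cultures are used. Both changes were called in 3392 genes, of which 2616 had the same sign in both systems and 776 (22.9%) had opposite signs. Across genes, which are not independent replicates, the log2 fold changes in the 2 systems had a Pearson correlation of 0.35 and a Spearman correlation of 0.36. The median over all genes was 0.13 in culture, -0.02 in vivo and 0.17 for the difference. With scaling by library size alone the median in vivo change moved by -0.20 and the median difference by 0.22, and with DESeq2 size factors the median difference moved by -0.11. The genes with a called difference were higher in culture in 57.8% of cases with TMM, in 67.4% with library size alone and in 52.8% with DESeq2.

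The opposite pattern was lopsided. Genes higher at DIV5 and lower at P21 numbered 654 (3.97% of genes tested), and genes lower at DIV5 and higher at P21 numbered 122 (0.741%). A gene was counted as changed in 1 system only where the other system showed a log2 fold change under 0.5 in size, an adjusted p of at least 0.05, and where the difference itself was called. By that rule 703 genes (4.27%) were higher and 178 (1.08%) lower in culture only, and 517 (3.14%) were higher and 549 (3.34%) lower in vivo only. Beside these, 1389 genes (8.44%) were higher and 1227 (7.46%) lower in both systems.

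**Figure D1:**
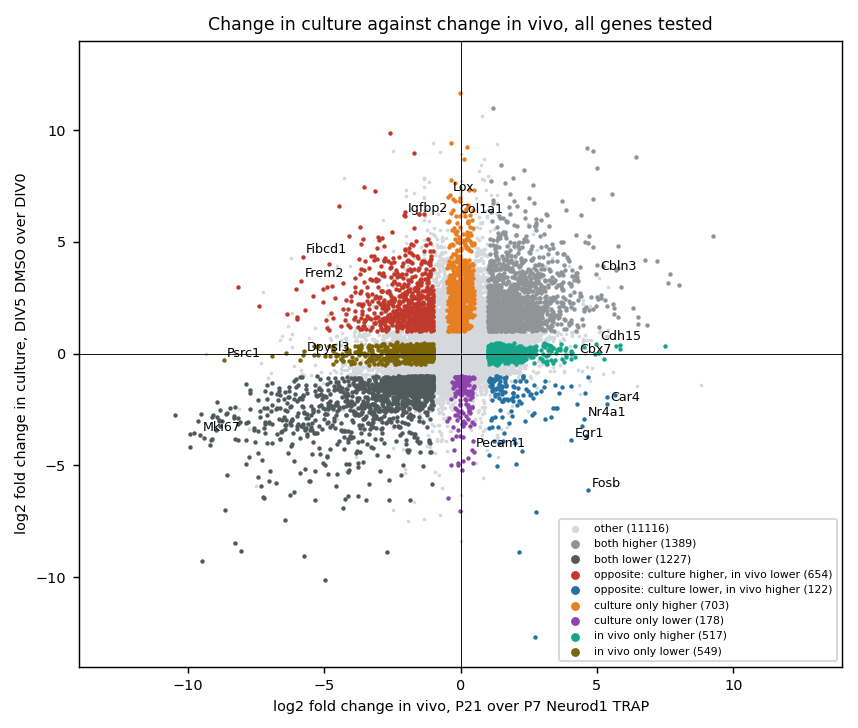
Each point is 1 of the 16455 genes tested, with its log2 fold change at P21 over P7 on the x axis and at DIV5 over DIV0 on the y axis, coloured by pattern with the number of genes in the legend. The 654 genes of the upper left quadrant outnumber the 122 of the lower right, where Fosb, Egr1, Nr4a1 and Car4 lie.

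The classes differed in how their genes were distributed between Neurod1 TRAP and input, a measure from other contrasts of the TRAP libraries with 1 library of total cerebellar RNA at each of P7, P12 and P21. Over all 15395 genes with that comparison, 36.8% were higher and 41% lower in TRAP than in input. Of the genes higher at DIV5 and lower at P21, 7.37% were higher and 75% lower in TRAP than in input, and of the genes higher in culture only 8.01% were higher and 73.2% lower. Genes lower at DIV5 and higher at P21 stood at 22.4% higher and 52.6% lower. Among genes higher in vivo only, 46.4% were higher and 29.7% lower in TRAP than in input, and among genes lower in vivo only 11.7% were higher and 59.7% lower. Within the 5665 genes higher in TRAP than in input, the opposite patterns held 44 genes higher at DIV5 and lower at P21 and 26 with the reverse pattern.

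Cell cycle exit was shared by both systems. All 20 of the cell cycle genes tested were lower at DIV5 than at DIV0 and lower at P21 than at P7, with a median log2 fold change of -2.71 in culture and -6.90 in vivo. The difference was called above 0 in 19 of the 20 and below 0 in 1, against 38.3% and 28% of all genes. Mki67, a nuclear protein of dividing cells, stood at 81.2 and 86.2 CPM at DIV5 and at 1058 and 1035 CPM at DIV0. In vivo it stood at 0.124, 0.499, 0.134, 0.298 and 0.0934 CPM at P21 and at 218, 126, 181, 178 and 191 CPM at P7. The groups did not overlap in either system, and the dish at DIV5 retained a level that no P21 library approached.

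With P12 in place of P21 the result was another. When P12 replaced P21, so that both systems spanned 5 days, the cell cycle list had 1 difference above 0 and 8 below 0 (32.6% and 25.9% of all genes), and its median difference was -0.31, against 4.03 with P21. For Mki67 the difference was 5.94 ± 0.35 (edgeR adjusted p = 5.5e-10) with P21 and -0.31 (adjusted p = 0.272) with P12. Cdk1, the mitotic kinase, gave 5.31 with P21 and -0.47 with P12, and Mycn, the growth regulator downstream of Sonic hedgehog, gave 3.21 and -1.02. Ezh2 had 24.8 and 28.5 CPM at DIV5 and 149 and 142 CPM at DIV0, and 7.82 to 9.29 CPM at P21 and 99.9 to 116 CPM at P7. Its difference was 1.21 ± 0.12 (adjusted p = 1.4e-07) with P21, -0.78 (adjusted p = 2e-05) with P12, and 0.22 (adjusted p = 0.131) with inputs in place of TRAP.

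Among 14 progenitor and Sonic hedgehog pathway genes, 1 was higher and 9 lower in culture, and 2 were higher and 10 lower in vivo. The difference was above 0 in 8 and below 0 in 5 (38.3% and 28% of all genes), with a median of 1.31. With P12 it was above 0 in 5 and below 0 in 7 (32.6% and 25.9% of all genes), and the median was -0.73. Atoh1 was at 0.0499 and 0.0758 CPM at DIV5 and at 43.0 and 42.2 CPM at DIV0, and at 0 to 0.0623 CPM at P21 and 20.1 to 26.3 CPM at P7. Its difference of 0.21 ± 0.61 did not pass (adjusted p = 0.803), and rests on a few reads in the later groups. With P12, when Atoh1 had a log2 fold change of -1.93 over P7, the difference was -7.31 (adjusted p = 1.1e-08), and with DIV5 cultures from Ezh1(wt/wt);Atoh1-Cre mice it was 2.11 (adjusted p = 0.0111). Gli3, a transcription factor of the pathway, behaved otherwise. It stood at 28.4 and 25.0 CPM at DIV5 and at 34.4 and 33.6 CPM at DIV0, a log2 fold change of -0.35 (adjusted p = 0.0504), while P21 libraries held 0.248 to 0.603 CPM and P7 libraries 8.21 to 10.8 CPM. Its difference was 3.98 ± 0.22 (adjusted p = 3.1e-10), and 1.71 with P12.

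The gene list whose medians lay farthest apart on opposite sides of 0, red cell genes aside, was that of the immediate early genes, transcription factors and effectors that neurons switch on within minutes of electrical activity and that other cells switch on with growth factors or stress. Of 17 tested, 14 were lower and 1 higher at DIV5 than at DIV0, and 13 were higher and 1 lower at P21 than at P7. The difference was below 0 in 16 and above 0 in 1, and 10 belonged to the 122 genes lower at DIV5 and higher at P21. The median log2 fold change was -2.24 in culture and 3.50 in vivo.

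Fosb, a subunit of the AP-1 transcription factor, stood at 1.70 and 1.86 CPM at DIV5 and at 122 and 127 CPM at DIV0. In vivo it stood at 4.26, 13.1, 8.58, 4.01 and 6.63 CPM at P21 and at 0.379, 0.26, 0.115, 0.293 and 0.329 CPM at P7. DIV0 was the highest of the 4 groups and P7 the lowest, with no overlap in either system. The log2 fold changes were -6.12 ± 0.47 in culture and 4.68 ± 0.40 in vivo, a difference of -10.79 ± 0.63 (adjusted p = 1.5e-09).

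Egr1, a zinc finger transcription factor, followed with 20.1 and 18.2 CPM at DIV5, 272 and 288 CPM at DIV0, 33.5 to 81.6 CPM at P21 and 2.56 to 4.08 CPM at P7 (difference -7.93 ± 0.43, adjusted p = 8e-10). Nr4a1, an orphan nuclear receptor, had 7.74 and 9.44 CPM at DIV5 and 64.9 and 67.7 CPM at DIV0, and 84.9 to 247 CPM at P21 and 4.94 to 8.08 CPM at P7. Here P21 was the highest group, and DIV5 lay near P7. Its difference was -7.45 ± 0.67 (adjusted p = 6.9e-07). Egr4, a relative of Egr1, was low in the dish at both times, with 0.849 and 0.341 CPM at DIV5 and 2.38 and 1.77 CPM at DIV0. It reached 36.5 to 76.5 CPM at P21, against 0.623 to 1.25 CPM at P7 (difference -7.51 ± 0.65, adjusted p = 5.7e-08).

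Not all members took part. Bdnf, the neurotrophin, was higher in both systems (log2 fold change 3.98 in culture and 5.01 in vivo), Egr2 was lower in both (-2.34 and -4.21), and Jun was lower in culture (-2.74) with -0.22 in vivo. The summed level of the list was 328 to 337 CPM at DIV5 and 1612 to 1654 CPM at DIV0, and 754 to 1381 CPM at P21 and 229 to 259 CPM at P7. The highest P21 sums, 1381 and 1224 CPM, were those of replicates 2 and 3, the libraries with the choroid plexus markers, and the other 3 held 754 to 872 CPM. With those 3 alone the difference was below 0 in 16 and above 0 in 1 (30% and 36.9% of all genes), with a median in vivo change of 3.14. The DIV0 cells had been dissociated and purified and the P7 cerebella had not. With TRAP libraries from isolated P7 progenitors (Math1 line, 4 libraries) in place of P7 Neurod1 TRAP, the difference was below 0 in 15 of the 17 and above 0 in 1, against 31.9% and 33.6% of all genes. Egr1 then had an in vivo log2 fold change of 0.20 and a difference of -4.16 that did not pass (adjusted p = 0.0612), while Fosb kept -8.60 (adjusted p = 1e-04). The part of cell isolation in the DIV0 level was not tested further.

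Genes outside that list were lower at DIV5 and higher at P21 too. Car4, a membrane-anchored carbonic anhydrase, stood at 1.05 and 1.44 CPM at DIV5 and 7.30 and 5.14 CPM at DIV0, and at 188, 161, 152, 186 and 207 CPM at P21 and 4.12, 4.46, 4.85, 3.48 and 4.69 CPM at P7. The starting levels were alike and the later levels far apart. The log2 fold changes were -2.27 ± 0.26 in culture and 5.37 ± 0.12 in vivo, a difference of -7.65 ± 0.27 (adjusted p = 2.5e-12). Ankrd37, a gene induced by hypoxia, had 0.949 and 0.758 CPM at DIV5 and 6.52 and 5.61 CPM at DIV0, and 18.9 to 25.0 CPM at P21 and 7.25 to 8.42 CPM at P7 (difference -4.35 ± 0.23, adjusted p = 1.8e-10). Slc2a1, the glucose transporter GLUT1, had 34.3 and 30.6 CPM at DIV5 and 73.9 and 78.3 CPM at DIV0, and 15.7 to 19.8 CPM at P21 and 3.36 to 5.47 CPM at P7 (difference -3.22 ± 0.21, adjusted p = 1.5e-09).

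Haemoglobin transcripts, which mark red blood cells, had the same pattern. Hba-a2, an alpha globin gene with a near-identical copy, had 0 and 0.152 CPM at DIV5, 43.3 and 41.2 CPM at DIV0, 44.9 to 90.9 CPM at P21 and 7.96 to 24.3 CPM at P7. Hbb-bs, a beta globin, had 0 counts in both DIV5 libraries, against 30.4 and 30.9 CPM at DIV0. With a floor of 3 counts over the group, it was at least 475-fold lower at DIV5. In vivo it had 37.2 to 74.7 CPM at P21 and 4.55 to 13.3 CPM at P7. Both genes were lower in TRAP than in input (log2 fold changes of -2.96 and -2.85).

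Of the genes higher at DIV5 and lower at P21, Fibcd1, a membrane receptor for acetylated sugars, stood at 14.4 and 16.7 CPM at DIV5 and at 0.725 and 0.797 CPM at DIV0. In vivo it stood at 1.03, 0.998, 1.44, 1.29 and 0.872 CPM at P21 and at 49.9, 74.1, 57.0, 75.1 and 59.1 CPM at P7. The dish reached a level between those of P21 and P7 from a start below both. The log2 fold changes were 4.34 ± 0.27 in culture and -5.80 ± 0.15 in vivo, a difference of 10.14 ± 0.31 (adjusted p = 8.8e-13), and Fibcd1 was higher in TRAP than in input (log2 fold change 1.12).

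Frem2, a protein of basement membranes, had 87.4 and 84.9 CPM at DIV5 and 8.96 and 9.13 CPM at DIV0, and 0.29 to 1.07 CPM at P21 and 30.8 to 46.4 CPM at P7 (difference 9.10 ± 0.31, adjusted p = 1.8e-12). Igfbp2, a secreted binding protein for insulin-like growth factors, had 1726 and 1643 CPM at DIV5 and 23.4 and 23.5 CPM at DIV0, and 3.31 to 10.3 CPM at P21 and 20.5 to 30.3 CPM at P7 (difference 8.22 ± 0.50, adjusted p = 4.9e-09). For Igfbp2 the starting levels of the systems were close, and the TRAP libraries held less of it than the inputs (log2 fold change -1.01). Col28a1, a collagen, Fxyd2, a regulatory subunit of the sodium pump, and Npr3, the clearance receptor of natriuretic peptides, had differences of 9.38, 8.29 and 7.79, each with P21 levels under 0.5 CPM. Pakap also showed the pattern, with 17.4 and 18.9 CPM at DIV5, 0.466 and 3.84 CPM at DIV0, 1 read in all at P21 and 0.298 to 5.72 CPM at P7, and no fold is given for it in vivo.

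Axon guidance, cytoskeleton and synapse genes were among them. Of 16 genes of axon guidance and adhesion, 8 were higher and 1 lower at DIV5 (24.6% and 13% of all genes), none was higher and 5 were lower at P21 (18.6% and 21.4%), and the difference was above 0 in 11 and below 0 in 2 (38.3% and 28%). The count of 5 lower at P21 is not far from the share over all genes. The 4 with opposite calls were Slit2, a secreted guidance cue, Efnb1 and Efnb2, the ephrin-B ligands, and Nrp1, the semaphorin co-receptor. Culture libraries hold RNA of all cells in the dish, and which cells carried these messages was not tested. Efnb1 stood at 59.3 and 53.6 CPM at DIV5 and 18.3 and 20.1 CPM at DIV0, and at 5.71, 5.85, 8.05, 5.10 and 5.11 CPM at P21 and 23.1, 31.0, 32.2, 27.5 and 34.8 CPM at P7. It went up in the dish and down in the animal from similar starting levels, with a difference of 3.87 ± 0.24 (adjusted p = 8.8e-10). For the whole list the culture median was 1.11 with the DMSO cultures and 0.14 with the Ezh1(wt/wt);Atoh1-Cre cultures. With the latter the difference was above 0 in 8 and below 0 in 2 of 14 tested (33.9% and 20.8% of all genes).

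Mapt, which encodes the microtubule protein tau, had 523 and 548 CPM at DIV5 and 183 and 184 CPM at DIV0. In vivo it had 292 to 363 CPM at P21 and 822 to 1056 CPM at P7, and the groups did not overlap in either system (difference 3.15 ± 0.14, adjusted p = 2.1e-11). Stx1a, the plasma membrane SNARE of synaptic vesicle release, had 71.7 and 87.7 CPM at DIV5 and 14.9 and 16.2 CPM at DIV0, and 20.2 to 30.5 CPM at P21 and 79.2 to 97.8 CPM at P7 (difference 4.23 ± 0.19, adjusted p = 3.1e-11). Shank2, a scaffold of excitatory synapses, had 79.1 and 88.5 CPM at DIV5 and 28.4 and 29.0 CPM at DIV0, and 25.4 to 33.3 CPM at P21 and 61.2 to 76.3 CPM at P7 (difference 2.76 ± 0.16, adjusted p = 3.5e-10). In Stx1a and Shank2 the DIV5 level lay near the P7 level and the DIV0 level near or below that of P21.

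Receptor subunits that neurons carry early in development were examined as a list. Of 11 juvenile receptor subunits and chloride transporters, 5 were higher and none lower at DIV5, and 2 were higher and 4 lower at P21. The difference was above 0 in 8 and below 0 in 3 (38.3% and 28% of all genes). Gabra3, a GABA-A receptor subunit, had 14.7 and 16.2 CPM at DIV5 and 6.01 and 5.58 CPM at DIV0, and 2.50 to 2.90 CPM at P21 and 12.3 to 21.5 CPM at P7 (difference 4.02 ± 0.25, adjusted p = 1.2e-09). Grin2b, the NMDA receptor subunit of immature synapses, had 32.6 and 31.6 CPM at DIV5 and 21.8 and 22.3 CPM at DIV0, a log2 fold change of 0.54 (adjusted p = 0.0564). In vivo it had 0.0414 to 0.642 CPM at P21 and 6.06 to 8.4 CPM at P7, and the difference was 4.75 ± 0.36 (adjusted p = 9e-09). Slc12a5, the chloride exporter KCC2 of mature neurons, was higher in both systems, with differences of 2.96 against P7 Neurod1 TRAP and -1.05 against P7 Math1 TRAP.

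**Figure D2:**
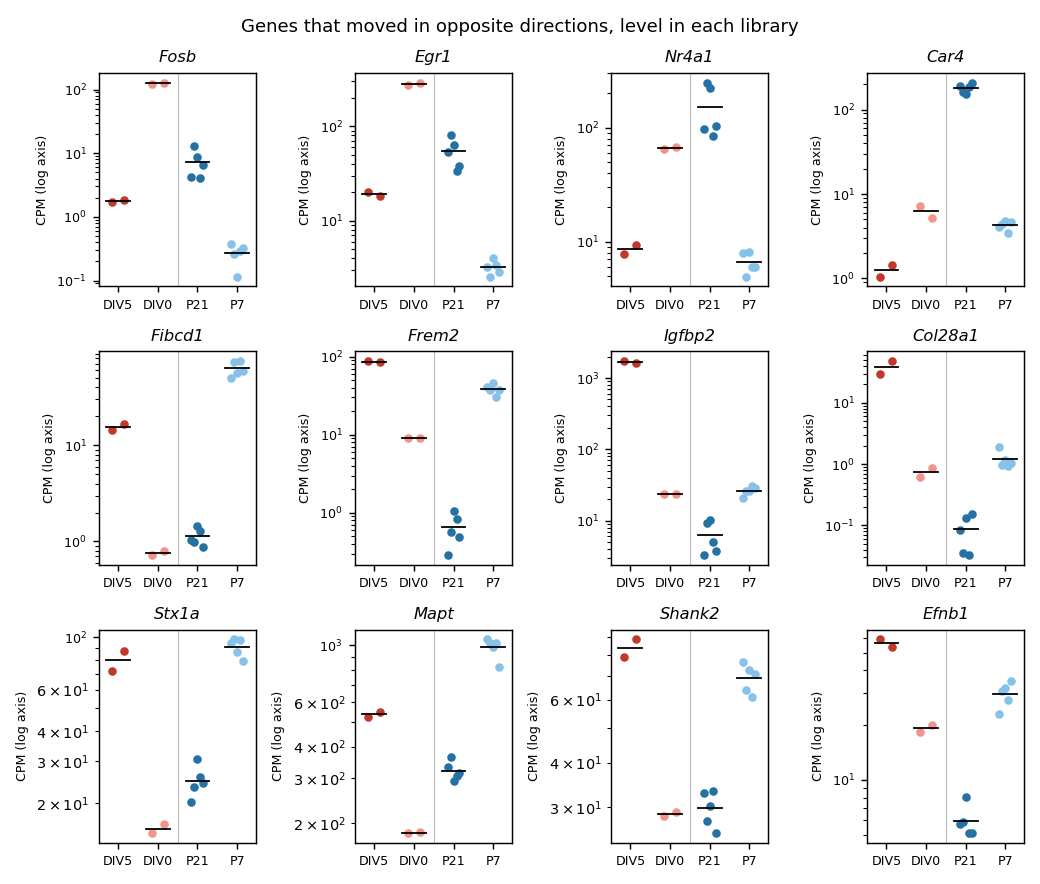
Level of 12 genes in each of the 14 libraries, in CPM on a log axis, with DIV5, DIV0, P21 and P7 from left to right, points for libraries and black bars for group means. In the top row (Fosb, Egr1, Nr4a1, Car4) the points are lower at DIV5 than at DIV0 and higher at P21 than at P7, and in the lower rows they run the other way in each system.

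Of the genes higher in vivo only, Cbx7 was named both as one of the largest differences and as a member of the Polycomb list. Its protein is the chromobox subunit of Polycomb repressive complex 1 that reads H3K27me3. It stood at 5.24 and 5.84 CPM at DIV5 and 5.59 and 6.52 CPM at DIV0, and at 56.3, 54.9, 57.6, 60.8 and 59.8 CPM at P21 and 2.79, 3.79, 2.77, 2.86 and 3.50 CPM at P7. The culture groups overlapped and the in vivo groups were far apart. The log2 fold change was -0.13 ± 0.15 in culture (adjusted p = 0.44) and 4.21 ± 0.09 in vivo (adjusted p = 5.6e-16), a difference of -4.34 ± 0.18 (adjusted p = 9.9e-12). With P12 the difference was -1.84.

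Of 21 Polycomb subunits and H3K27 demethylases, 2 were higher and 8 lower in culture, and 3 were higher and 6 lower in vivo. The difference was above 0 in 5 and below 0 in 12 (38.3% and 28% of all genes). Its median was -0.49, against 0.17 over all genes. The list pools enzymes with opposite activities on the mark. Ezh1 had 45.0 and 46.1 CPM at DIV5 and 39.6 and 36.8 CPM at DIV0, a log2 fold change of 0.26 ± 0.09 (adjusted p = 0.0228), and 95.2 to 108 CPM at P21 and 31.2 to 36.5 CPM at P7, a log2 fold change of 1.57 ± 0.06. Its difference was -1.31 ± 0.11 (adjusted p = 3.5e-08) with P21 and -0.53 (adjusted p = 0.00013) with P12. Cbx6, another chromobox protein, was higher in both systems, with 126 and 121 CPM at DIV5 and 57.1 and 55.8 CPM at DIV0, and 887 to 974 CPM at P21 and 161 to 208 CPM at P7 (difference -1.22). Aebp2, a cofactor of the EZH2 complex, was at 69.2 and 67.7 CPM at DIV5 and 109 and 117 CPM at DIV0, and at 149 to 174 CPM at P21 and 73.8 to 85.6 CPM at P7 (difference -1.72).

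Cdh15, also called M-cadherin, a cell adhesion molecule found on cerebellar granule cells, had 2.15 and 2.50 CPM at DIV5 and 1.81 and 1.63 CPM at DIV0, and 55.1 to 67.7 CPM at P21 and 1.25 to 2.72 CPM at P7 (difference -4.52 ± 0.32, adjusted p = 4.1e-09). Tssk5, a testis-type serine kinase, was almost unread in the dish, with 0.0499 and 0.152 CPM at DIV5 and 0 and 0.145 CPM at DIV0, and reached 12.1 to 16.9 CPM at P21, against 0 to 0.206 CPM at P7. Without DIV0 replicate 2 its difference of -7.17 fell in size to -2.90 and did not pass (adjusted p = 0.919). Marveld2 (tricellulin), Car9, a carbonic anhydrase induced by hypoxia, and Stap2, a signalling adaptor, had differences of -5.50, -5.36 and -4.93, with levels of 0.984 to 2.1 CPM in the 4 culture libraries.

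Fast potassium channels were in the same class. Of 18 voltage-gated channel genes, 10 were higher and 1 lower in culture (24.6% and 13% of all genes). In vivo 11 were higher and 2 lower (18.6% and 21.4%), and 3 were higher in vivo only (3.14%). Kcnc1, a Kv3 channel subunit of fast-spiking neurons, stood at 161 and 165 CPM at DIV5 and 141 and 149 CPM at DIV0, and at 695, 645, 656, 695 and 697 CPM at P21 and 106, 113, 125, 95.6 and 137 CPM at P7. The culture groups lay close together, a little above P7, and the P21 libraries lay far above all others. The log2 fold change was 0.17 in culture (adjusted p = 0.223) and 2.55 in vivo (adjusted p = 3.6e-14), a difference of -2.38 ± 0.15 (adjusted p = 9.2e-10). Cacna1g, a T-type calcium channel, was higher in both systems, with 236 and 258 CPM at DIV5 and 11.1 and 11.4 CPM at DIV0, and 80 to 102 CPM at P21 and 25.0 to 54.8 CPM at P7 (difference 3.38 ± 0.31, adjusted p = 1.3e-07). With P7 Math1 TRAP in place of P7 Neurod1 TRAP the Cacna1g difference was 0.20 and did not pass (adjusted p = 0.541).

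Respiratory chain genes had more upward changes in the animal than in the DMSO cultures. Of 18 oxidative phosphorylation genes, 1 was higher and none lower at DIV5, and 5 were higher and none lower at P21. The difference was below 0 in 14 and above 0 in 2 (28% and 38.3% of all genes). The median log2 fold change of the list was -0.01 in culture and 0.83 in vivo, and the median difference was -0.73. The size of that difference moved with the libraries: with the Ezh1(wt/wt);Atoh1-Cre cultures the culture median was 0.68 and the median difference was -0.19. With those cultures 7 of 18 differences were below 0 and 3 above 0 (20.8% and 33.9% of all genes). The median difference was -0.26 with P12 and -0.23 with inputs in place of TRAP. Cox7a2, a subunit of cytochrome c oxidase, had 56.2 and 56.9 CPM at DIV5 and 50.6 and 58.1 CPM at DIV0, and 705 to 819 CPM at P21 and 213 to 247 CPM at P7 (difference -1.69 ± 0.11, adjusted p = 2.2e-09). It was also higher in TRAP than in input (log2 fold change 1.61). The summed level of the list was 2782 to 2808 CPM at DIV5 and 2717 to 2757 CPM at DIV0, and 10736 to 11691 CPM at P21 and 5601 to 5913 CPM at P7. The gene that stood apart was Ppargc1a, a coactivator of mitochondrial genes, with log2 fold changes of 1.74 in culture and 0.19 in vivo.

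Genes lower in vivo only had, by the rule of the class, like levels at both culture times. Dpysl3, a growth cone phosphoprotein of the collapsin response mediator family, stood at 367 and 329 CPM at DIV5 and 351 and 363 CPM at DIV0. In vivo it stood at 12.4, 19.6, 15.2, 12.1 and 11.0 CPM at P21 and at 765, 752, 808, 757 and 752 CPM at P7. The culture groups overlapped, and the P21 libraries lay far below the P7 libraries. The log2 fold change was -0.04 ± 0.17 in culture (adjusted p = 0.854) and -5.77 ± 0.13 in vivo, a difference of 5.73 ± 0.22 (adjusted p = 7.2e-12) that was 1.30 with P12.

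Homer2, a postsynaptic scaffold protein, had 136 and 135 CPM at DIV5 and 105 and 106 CPM at DIV0, and 3.27 to 6.74 CPM at P21 and 184 to 228 CPM at P7 (difference 5.75 ± 0.23, adjusted p = 7.9e-12). Kcnq5, a potassium channel of the M current, had 41.7 and 45.7 CPM at DIV5 and 34.1 and 35.2 CPM at DIV0, and 0.762 to 2.02 CPM at P21 and 42.1 to 59.7 CPM at P7 (difference 5.57 ± 0.30, adjusted p = 2.1e-10). Psrc1, a protein of the mitotic spindle, had 20.8 and 22.3 CPM at DIV5 and 25.3 and 27.7 CPM at DIV0, and 0 to 0.134 CPM at P21 and 16.5 to 21.5 CPM at P7. Its log2 fold change in culture was -0.30 (adjusted p = 0.15), unlike the cell cycle list, and its difference was 8.4 ± 0.36 (adjusted p = 1.6e-11). Rai14, an actin-binding protein, and Fam111a, a nuclear protease, had differences of 5.87 and 5.6. Phgdh, the first enzyme of serine synthesis, and Trp53inp1, a p53 target, were also in this class, with differences of 3.02 and 2.88.

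With P12 in place of P21, a comparison that shares the DIV5, DIV0 and P7 libraries, these classes were smaller, with 140 genes higher and 159 lower in vivo only. The opposite classes held 221 genes higher at DIV5 and lower in vivo and 59 with the reverse pattern.

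**Figure D3:**
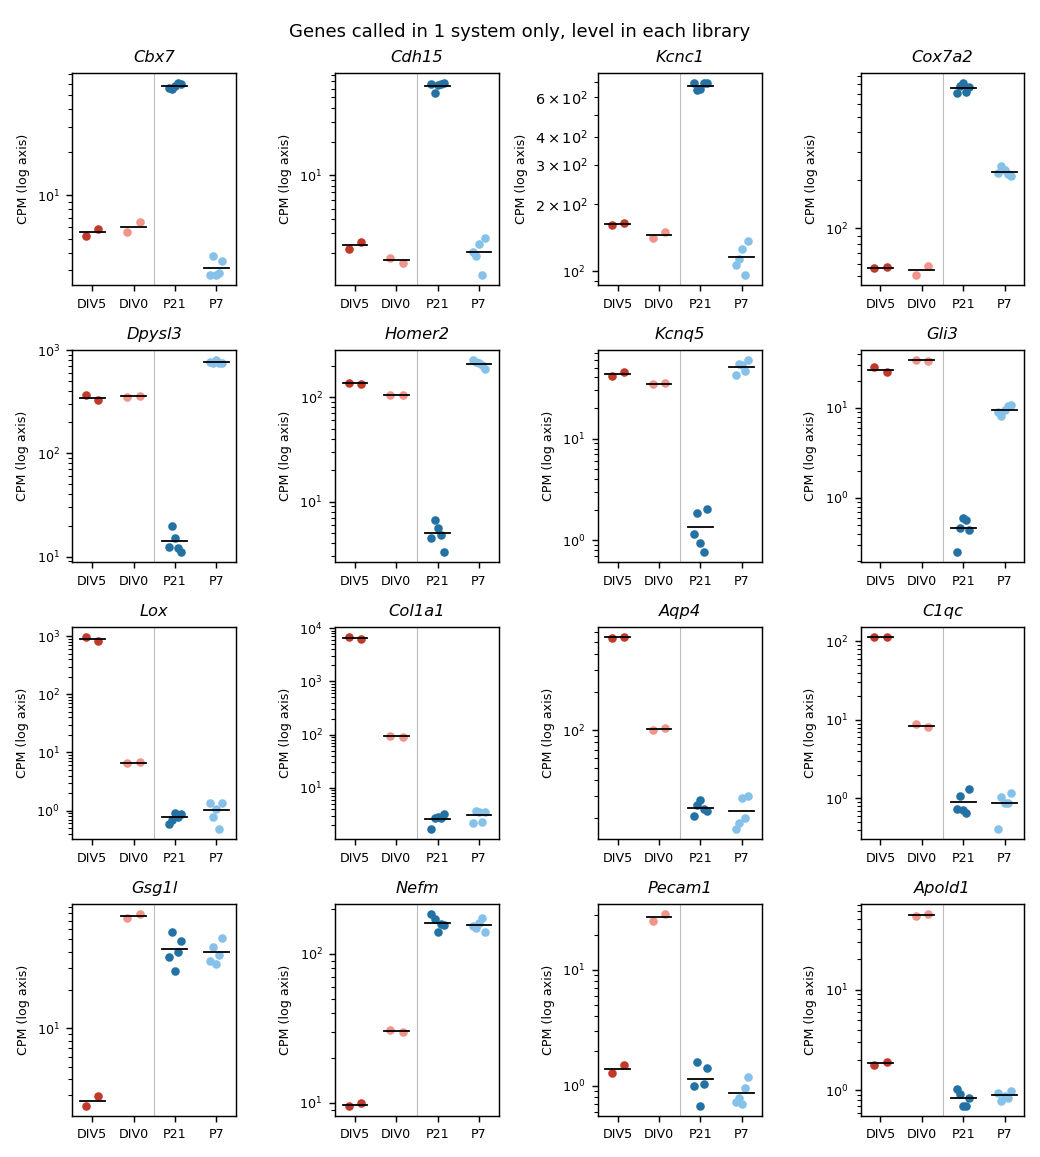
Level of 16 genes in each of the 14 libraries, in CPM on a log axis, with DIV5, DIV0, P21 and P7 from left to right, points for libraries and black bars for group means. The first 2 rows hold genes called in vivo only, such as Cbx7 with 2.77 to 6.52 CPM outside P21 and 54.9 to 60.8 CPM at P21, and the last 2 rows genes called in culture only.

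Of the genes higher in culture only, Lox, the enzyme that crosslinks collagen and elastin, stood at 987 and 847 CPM at DIV5 and 6.47 and 6.77 CPM at DIV0, and at 0.579, 0.678, 0.905, 0.762 and 0.872 CPM at P21 and 1.35, 0.78, 1.08, 0.476 and 1.36 CPM at P7. The in vivo groups overlapped at about 1 CPM. The log2 fold change was 7.11 ± 0.21 in culture and -0.41 ± 0.23 in vivo (adjusted p = 0.118), a difference of 7.52 ± 0.31 (adjusted p = 1.2e-11). Spp1 (osteopontin, a secreted matrix protein) had 2469 and 2655 CPM at DIV5 and 17.2 and 14.7 CPM at DIV0, and 0.952 to 1.68 CPM at P21 and 0.135 to 2.22 CPM at P7 (difference 6.85 ± 0.58, adjusted p = 9.7e-08). S100a4, a calcium-binding protein of fibroblasts, Col8a1, a collagen, Osr1, a transcription factor of mesenchyme, and Smoc2, a matrix protein, had differences of 8.58, 7.84, 7.22 and 7.01. With P7 Math1 TRAP in place of P7 Neurod1 TRAP the S100a4 difference was 4.87 and did not pass (adjusted p = 0.903). Vnn1, a pantetheinase, had 0 counts in both DIV0 libraries and 13.8 and 15.7 CPM at DIV5, at least 231-fold higher at DIV5 with a floor of 3 counts over the group, and 0.067 to 0.178 CPM at P21 and 0.0743 to 0.19 CPM at P7.

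Markers of cells other than granule cells moved with this class. Of 13 vascular and meningeal markers, 7 were higher and 5 lower at DIV5, and 1 was higher and 2 lower at P21. Their summed level was 14040 to 15853 CPM at DIV5 and 858 to 868 CPM at DIV0, and 26.7 to 44.8 CPM at P21 and 28.1 to 50.1 CPM at P7. Within the list the members parted in culture: the endothelial genes Cldn5, Pecam1, Flt1 and Kdr fell while Cdh5, also endothelial, rose (log2 fold change 1.02), and of the mural cell markers Pdgfrb rose (3.72) and Rgs5 fell (-1.50). With the Ezh1(wt/wt);Atoh1-Cre cultures the median of the list was -0.19 in culture, against 1.02 with the DMSO cultures. The median difference was 0.08, against 1.29. In the Ezh1(wt/wt);Atoh1-Cre comparison 4 differences were above 0 and 6 below 0 (33.9% and 20.8% of all genes). Col1a1 stood at 6923 and 6246 CPM at DIV5 and 93.6 and 91.5 CPM at DIV0, and at 1.66 to 3.27 CPM at P21 and 2.19 to 3.72 CPM at P7 (difference 6.32 ± 0.26, adjusted p = 1.2e-11). Pecam1, an endothelial adhesion molecule, had 1.30 and 1.52 CPM at DIV5 and 26.4 and 30.6 CPM at DIV0, and 0.67 to 1.60 CPM at P21 and 0.693 to 1.19 CPM at P7 (difference -4.74 ± 0.36, adjusted p = 9.5e-09). In bulk RNA, fewer cells of a type and less RNA per cell cannot be told apart, and the part of such cells in the class was not tested.

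Of 11 microglial markers, 10 were higher and none lower at DIV5, 1 was higher and 1 lower at P21, and 6 were higher in culture only. Their sum was 569 to 580 CPM at DIV5 and 62.9 to 63.6 CPM at DIV0, and 6.46 to 14.7 CPM at P21 and 4.25 to 13.8 CPM at P7. C1qc, a chain of complement C1q, had 114 and 115 CPM at DIV5 and 8.96 and 8.04 CPM at DIV0, and 0.663 to 1.31 CPM at P21 and 0.406 to 1.19 CPM at P7 (difference 3.67 ± 0.34, adjusted p = 9.5e-08). With 5 DIV5 cultures from Ezh1(wt/wt);Atoh1-Cre mice in place of the 2 DMSO cultures, the difference passed in 1 of the 11 markers, against 33.9% of all genes higher and 20.8% lower, and for C1qc it was 2.03 (adjusted p = 0.218).

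Of 12 markers of Bergmann glia and astrocytes, 7 were higher and 1 lower at DIV5, and 3 were higher and 3 lower at P21. Their sum was 2259 to 2262 CPM at DIV5 and 779 to 781 CPM at DIV0, and 347 to 426 CPM at P21 and 434 to 662 CPM at P7. Aqp4, the water channel of astrocytes, had 538 and 549 CPM at DIV5 and 100.0 and 104 CPM at DIV0, and 20.9 to 28.1 CPM at P21 and 16.4 to 30.3 CPM at P7 (difference 2.32 ± 0.26, adjusted p = 9.8e-07). Fabp7, the fatty acid binding protein of radial and Bergmann glia, and Aldh1l1, a folate enzyme of astrocytes, were higher at DIV5 and lower at P21, with differences of 5.12 and 3.73. The difference was above 0 in 7 and below 0 in 1 of the 12 (38.3% and 28% of all genes), with a median of 1.06. With the Ezh1(wt/wt);Atoh1-Cre cultures it was above 0 in 7 and below 0 in none (33.9% and 20.8% of all genes), and the median was 2.39. With inputs in place of TRAP it was above 0 in 5 and below 0 in 4 (33.8% and 28.8% of all genes), and the median was 0.14.

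Oligodendrocyte lineage markers went the other way. Of 13, none was higher and 3 were lower at DIV5, 8 were higher and 3 lower at P21, and the difference was below 0 in 10 and above 0 in 2, with medians of -0.66 in culture and -2.06 for the difference. With the Ezh1(wt/wt);Atoh1-Cre cultures the difference was below 0 in 4 and above 0 in 3 of 12 tested (20.8% and 33.9% of all genes). The medians were then 0.22 in culture and -1.01 for the difference. Mag, a myelin adhesion protein, had 15.9 and 16.5 CPM at DIV5 and 29.5 and 28.1 CPM at DIV0, and 33.5 to 48.8 CPM at P21 and 4.23 to 9.96 CPM at P7 (difference -3.67 ± 0.32, adjusted p = 4.9e-08), and it was lower in TRAP than in input (log2 fold change -1.74). Pdgfra, the receptor of oligodendrocyte precursors and of fibroblasts, had 206 and 181 CPM at DIV5 and 161 and 158 CPM at DIV0, and 1.43 to 1.82 CPM at P21 and 101 to 121 CPM at P7 (difference 6.45 ± 0.14, adjusted p = 5.5e-14). Of 8 Purkinje cell markers 6 were higher at DIV5 and 7 at P21 with none lower, and of 9 interneuron markers 2 were higher and 2 lower at DIV5 and 2 higher and 1 lower at P21. Of 3 unipolar brush cell markers 2 were higher and 1 lower at DIV5, and none was higher and 1 lower at P21. None of 4 choroid plexus and ependymal markers was called in either system, and 1 (Foxj1) had a called difference of 1.28. The difference of Folr1 did not pass in the main fit and passed in other settings. It was 2.89 with DESeq2 (adjusted p = 0.0472) and 4.65 with P21 replicates 1, 4 and 5 alone (edgeR adjusted p = 0.00467). Ttr, the transthyretin of choroid plexus, ranged from 0.124 to 140 CPM among P21 libraries and from 0.0733 to 40.0 CPM among P7 libraries.

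**Figure D4:**
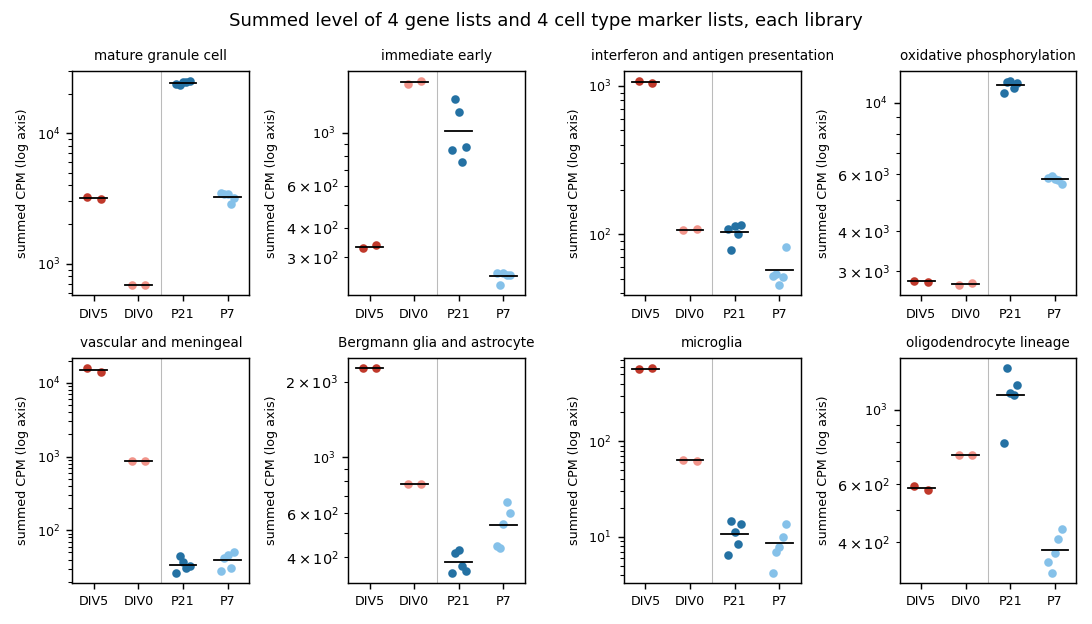
Summed CPM of 4 gene lists (top row) and 4 cell type marker lists (bottom row) in each library on a log axis, with DIV5, DIV0, P21 and P7 from left to right, points for libraries and black bars for group means. Vascular and meningeal markers sum to 14040 to 15853 CPM at DIV5 and to at most 50.1 CPM in any in vivo library, while mature granule cell genes reach 23526 to 25166 CPM at P21 and 3152 to 3233 CPM at DIV5.

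The 178 genes lower in culture only included neuronal genes beside endothelial ones. Gsg1l, an auxiliary subunit of AMPA receptors, had 2.45 and 2.96 CPM at DIV5 and 74.2 and 79.7 CPM at DIV0, and 36.3, 56.8, 28.3, 39.8 and 48.7 CPM at P21 and 34.0, 43.5, 32.3, 37.4 and 51.5 CPM at P7. The in vivo groups overlapped almost fully. Its difference was -4.90 ± 0.36 (adjusted p = 1.1e-08). Nefm, the medium neurofilament chain, had 9.49 and 9.90 CPM at DIV5 and 30.7 and 29.8 CPM at DIV0, and 139 to 186 CPM at P21 and 140.0 to 173 CPM at P7 (difference -1.70 ± 0.15, adjusted p = 6.1e-08). Apold1, an endothelial early response gene, Slco1c1, a thyroid hormone transporter of brain vessels, Slc38a5, an amino acid transporter, and Il1a, a cytokine, had differences of -4.80, -4.86, -5.99 and -6.99, with in vivo levels of 2.53 CPM or less.

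Interferon-stimulated and antigen presentation genes had the highest median change in culture of the program lists. All 13 were higher at DIV5 than at DIV0, 8 were higher and 1 lower at P21 than at P7, and the difference was above 0 in 12 and below 0 in none. The median log2 fold change was 4.36 in culture and 1.33 in vivo. The sum over the list was 1045 to 1079 CPM at DIV5 and 107 to 108 CPM at DIV0, and 78.1 to 116 CPM at P21 and 45.3 to 81.5 CPM at P7.

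Type I interferon acts on many of its target genes through the interferon-stimulated response element in their promoters. A core of it, GAAANNGAAA, was searched on both strands in the 250 bases before the start of each gene in RefSeq (GRCm38.p6), where matches may overlap. It was present in 5 of the 10 interferon list genes with a promoter entry (50%), in 410 of 12885 tested genes with one (3.18%), in 3 of 13 immediate early genes (23.1%), in 4.4% of the genes higher at DIV5 and lower at P21, and in 5.17% of the genes higher in culture only. Shown are 3 of these promoters, each on the strand of its gene, with matches to the core in capitals, because the genes are among those with the largest change in culture. They lie at chr19:34640639-34640888 on the plus strand (Ifit1), chr4:156200819-156201068 on the minus strand (Isg15) and chr8:71537473-71537722 on the minus strand (Bst2).
Ifit1: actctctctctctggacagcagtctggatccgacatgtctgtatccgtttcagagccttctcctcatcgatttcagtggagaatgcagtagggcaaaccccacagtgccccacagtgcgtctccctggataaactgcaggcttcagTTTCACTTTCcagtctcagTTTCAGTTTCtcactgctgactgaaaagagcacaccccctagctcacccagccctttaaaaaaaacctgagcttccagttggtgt
Isg15: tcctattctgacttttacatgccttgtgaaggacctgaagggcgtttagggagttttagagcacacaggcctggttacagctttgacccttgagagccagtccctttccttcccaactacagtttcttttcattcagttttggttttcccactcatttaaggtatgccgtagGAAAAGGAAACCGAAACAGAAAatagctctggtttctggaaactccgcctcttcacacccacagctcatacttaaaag
Bst2: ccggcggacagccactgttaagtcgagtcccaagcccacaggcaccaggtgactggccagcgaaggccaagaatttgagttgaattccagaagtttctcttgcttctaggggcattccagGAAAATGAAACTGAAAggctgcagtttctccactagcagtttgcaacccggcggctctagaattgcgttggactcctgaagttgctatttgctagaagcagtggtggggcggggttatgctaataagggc
Ifit1 and Bst2 hold 2 matches each and Isg15 holds 3. A match describes the letters of the window and not a bound site.

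Ifit1, an inhibitor of viral translation, stood at 53.8 and 54.0 CPM at DIV5 and at 0.725 and 0.254 CPM at DIV0, and at 0.369 to 1.06 CPM at P21 and 0.0733 to 0.741 CPM at P7. The DIV5 libraries lay far above all others. The log2 fold change was 6.88 ± 0.47 in culture and 1.19 ± 0.44 in vivo, a difference of 5.69 ± 0.74 (adjusted p = 4.3e-06). Isg15, a ubiquitin-like modifier, had 32.7 and 30.9 CPM at DIV5 and 0.725 and 0.543 CPM at DIV0, and 0.178 to 0.563 CPM at P21 and 0.11 to 0.576 CPM at P7 (difference 5.08 ± 0.58, adjusted p = 1.1e-06). Bst2, tetherin, had log2 fold changes of 5.69 in culture and 2.05 in vivo. Tap1, the peptide transporter of antigen presentation, was higher at DIV5 and lower at P21.

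The size of the interferon difference depended on the cultures used. With the Ezh1(wt/wt);Atoh1-Cre cultures 5 of the 13 differences passed, all above 0, which is near the 33.9% of all genes above 0 in that comparison, and the median difference was 1.32, against 3.79 with the DMSO cultures. For Ifit1 it was 1.32 (adjusted p = 0.398). These cultures differ from the DMSO cultures in genotype, in the absence of a stated solvent and in age at isolation (P7 against P6 to P7), and they were set against the same DIV0 libraries, which are of other cells. Which of these bears on the values cannot be told apart, and the microglial markers that move with the interferon genes in the DMSO cultures are given above; their part was not tested.

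Of 14 actin and SRF target genes, 8 were higher and 3 lower at DIV5, and 3 were higher and 3 lower at P21. The difference was above 0 in 12 and below 0 in 2 (38.3% and 28% of all genes). The summed level of the list did not rise in culture, with 6080 to 6524 CPM at DIV5 and 6692 to 6710 CPM at DIV0. In vivo the sum was 1954 to 2367 CPM at P21 and 6083 to 6719 CPM at P7. Acta2, the actin of smooth muscle and myofibroblasts, had 621 and 517 CPM at DIV5 and 2.28 and 2.83 CPM at DIV0, and 0.621 to 0.939 CPM at P21 and 0.33 to 0.569 CPM at P7 (difference 6.91 ± 0.29, adjusted p = 1.4e-11). Srf, the transcription factor of these genes, went the other way, with 34.1 and 33.7 CPM at DIV5 and 259 and 267 CPM at DIV0, and 103 to 119 CPM at P21 and 72.5 to 80.9 CPM at P7 (difference -3.46 ± 0.10, adjusted p = 8e-13).

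Of 13 p53 target genes, 4 were higher and none lower at DIV5, and none was higher and 4 were lower at P21. The difference was above 0 in 9 and below 0 in 3 (38.3% and 28% of all genes), with a median of 2.59. Eda2r, a death receptor of the TNF family, stood at 34.4 and 29.8 CPM at DIV5 and 21.4 and 21 CPM at DIV0, and at 0 to 0.134 CPM at P21 and 6.83 to 11.3 CPM at P7 (difference 7.24 ± 0.37, adjusted p = 1.1e-10). Ccng1, a cyclin induced by p53, had 200 and 166 CPM at DIV5 and 22.2 and 22.3 CPM at DIV0, and 45.6 to 63.1 CPM at P21 and 66.2 to 73.6 CPM at P7 (difference 3.33 ± 0.15, adjusted p = 4e-11). Plk2, a kinase induced by activity and by p53, was higher at DIV5 and lower at P21 (difference 2.98 ± 0.19).

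The mature granule cell program rose in both systems and reached different levels. Of 17 genes, 16 were higher and none lower at DIV5, 14 were higher and none lower at P21, and the difference was above 0 in 8 and below 0 in 5, with medians of 3.57 in culture, 3.79 in vivo and 0.16 for the difference. With P12 the difference was above 0 in 11 and below 0 in 2 (32.6% and 25.9% of all genes). The medians were then 2.25 in vivo and 1.18 for the difference. The summed level was 3152 to 3233 CPM at DIV5 and 685 to 691 CPM at DIV0, and 23526 to 25166 CPM at P21 and 2882 to 3464 CPM at P7, so that the DIV5 libraries lay within the range of P7. Gabra6 stood at 14.4 and 13.3 CPM at DIV5 and 0.0518 and 0 CPM at DIV0, and at 1262 to 1598 CPM at P21 and 27.5 to 65.6 CPM at P7. The DIV0 level rests on 1 read, so no fold is given in culture, and without DIV0 replicate 2 the difference of 4.20 became 3.08 and did not pass (adjusted p = 0.156).

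Cbln3, a secreted synapse organizer of granule cells, had 31.0 and 30.4 CPM at DIV5 and 3.16 and 2.14 CPM at DIV0, and 1579 to 1865 CPM at P21 and 48.0 to 63.8 CPM at P7. The difference was -1.41 ± 0.20 (adjusted p = 1.3e-05) with P21 and 0.26 (adjusted p = 0.248) with P12. Vsnl1, a calcium sensor, had 40.0 and 38.0 CPM at DIV5 and 1.04 and 0.869 CPM at DIV0, and 1841 to 2228 CPM at P21 and 190.0 to 290.0 CPM at P7 (difference 2.30 ± 0.26, adjusted p = 1.1e-06). The direction turned with the in vivo start. P7 Neurod1 TRAP holds cells that had begun to differentiate, and with P7 Math1 TRAP of isolated progenitors as the start, 1 of the 17 differences was above 0 and 13 were below 0 (33.6% and 31.9% of all genes), the median was -2.06, and that of Vsnl1 was -2.66.

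Of 20 presynaptic vesicle genes, 15 were higher and none lower at DIV5, 13 were higher and 1 lower at P21, and the difference was above 0 in 8 and below 0 in 7, near the 38.3% and 28% of all genes. It was above 0 in 13 and below 0 in 3 with P12 (32.6% and 25.9% of all genes), and above 0 in 3 and below 0 in 15 with P7 Math1 TRAP (33.6% and 31.9%), with a median of -1.35. Vamp1, a vesicle SNARE of mature neurons, had 8.59 and 11.1 CPM at DIV5 and 4.14 and 3.55 CPM at DIV0, and 307 to 367 CPM at P21 and 18.1 to 23.5 CPM at P7 (difference -2.68 ± 0.19, adjusted p = 4.8e-09). Of 16 postsynaptic genes, 7 were higher and none lower at DIV5, and 5 were higher and 2 lower at P21. The difference was above 0 in 7 and below 0 in 4, near the 38.3% and 28% of all genes. Shank1, a scaffold of the postsynaptic density, had 55.5 and 60.5 CPM at DIV5 and 15.8 and 17.2 CPM at DIV0, and 72.3 to 91.7 CPM at P21 and 94.5 to 118 CPM at P7 (difference 2.20 ± 0.14, adjusted p = 1.8e-09). With P7 Math1 TRAP in place of P7 Neurod1 TRAP the difference was -0.87. Of 15 cytoskeleton genes, 5 were higher and 4 lower at DIV5, and 2 were higher and 7 lower at P21. The difference was above 0 in 10 and below 0 in 4 (38.3% and 28% of all genes). Tubb4a, the beta tubulin of mature brain, was higher in both systems and more so in vivo (difference -1.72 ± 0.12).

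Among 18 genes of early differentiation and migration, 1 was higher and 8 lower at DIV5 and none was higher and 12 lower at P21. Dcx (doublecortin), a microtubule protein of migrating neurons, had 292 and 285 CPM at DIV5 and 894 and 902 CPM at DIV0, and 2.68 to 4.74 CPM at P21 and 645 to 805 CPM at P7, with a difference of 6.09 ± 0.19 (adjusted p = 9.4e-13) that was 0.20 (adjusted p = 0.285) with P12. Nhlh2, a transcription factor of newly formed neurons, fell further in the dish, with 18.5 and 18.9 CPM at DIV5 and 371 and 373 CPM at DIV0, and 64.7 to 72.6 CPM at P21 and 254 to 293 CPM at P7 (difference -2.35 ± 0.10, adjusted p = 1.2e-11). Of 21 granule cell transcription factors none was higher and 11 were lower at DIV5, and 1 was higher and 13 were lower at P21. The difference was above 0 in 8 and below 0 in 5 with P21, about the 38.3% and 28% of all genes, and above 0 in 2 and below 0 in 13 with P12 (32.6% and 25.9%). Insm1, a zinc finger factor of progenitors leaving the cycle, had a difference of 3.14 with P21 and -3.01 with P12.

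Metabolic and stress lists were mixed. Of 20 glycolysis and hypoxia genes, 9 were higher and 2 lower at DIV5 and 8 were higher and 1 lower at P21, and the sign of the median difference (-0.21) turned with scaling by library size alone (0.01). Hk2, a hexokinase of growing cells, had 13.2 and 13.0 CPM at DIV5 and 18.2 and 18.1 CPM at DIV0, and 4.86 to 5.40 CPM at P21 and 66.7 to 75.3 CPM at P7 (difference 3.31 ± 0.11, adjusted p = 1.8e-12). Of 21 cholesterol genes, none was higher and 7 were lower at DIV5 and 2 were higher and 7 lower at P21, with 7 differences above 0 and 8 below 0 and a median of -0.05 that was 0.17 with library size alone. With P12 there were 2 above 0 and 13 below 0 (32.6% and 25.9% of all genes), and the median was -0.68. Insig1, a sterol sensor of the endoplasmic reticulum, had a difference of -2.03. Of 15 genes of the integrated stress response and serine synthesis, 3 were higher and 6 lower at DIV5 (24.6% and 13% of all genes). At P21 none was higher and 7 were lower (18.6% and 21.4%). Atf4, the effector of that response, had 126 and 124 CPM at DIV5 and 397 and 398 CPM at DIV0, and 302 to 367 CPM at P21 and 197 to 203 CPM at P7 (difference -2.38 ± 0.11, adjusted p = 2.3e-11). Of 12 endoplasmic reticulum folding genes, 1 was higher and none lower at DIV5 and 4 were higher and none lower at P21. Of 15 lysosomal genes, 14 were higher and none lower at DIV5 and 8 were higher and none lower at P21. The difference was above 0 in 11 and below 0 in 1 (38.3% and 28% of all genes). With the Ezh1(wt/wt);Atoh1-Cre cultures it was above 0 in 1 and below 0 in 1 of 14 (33.9% and 20.8% of all genes). The median difference was 0.45 with those cultures and 0.87 with the DMSO cultures, and the culture medians were 1.63 and 1.91.

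**Figure D5:**
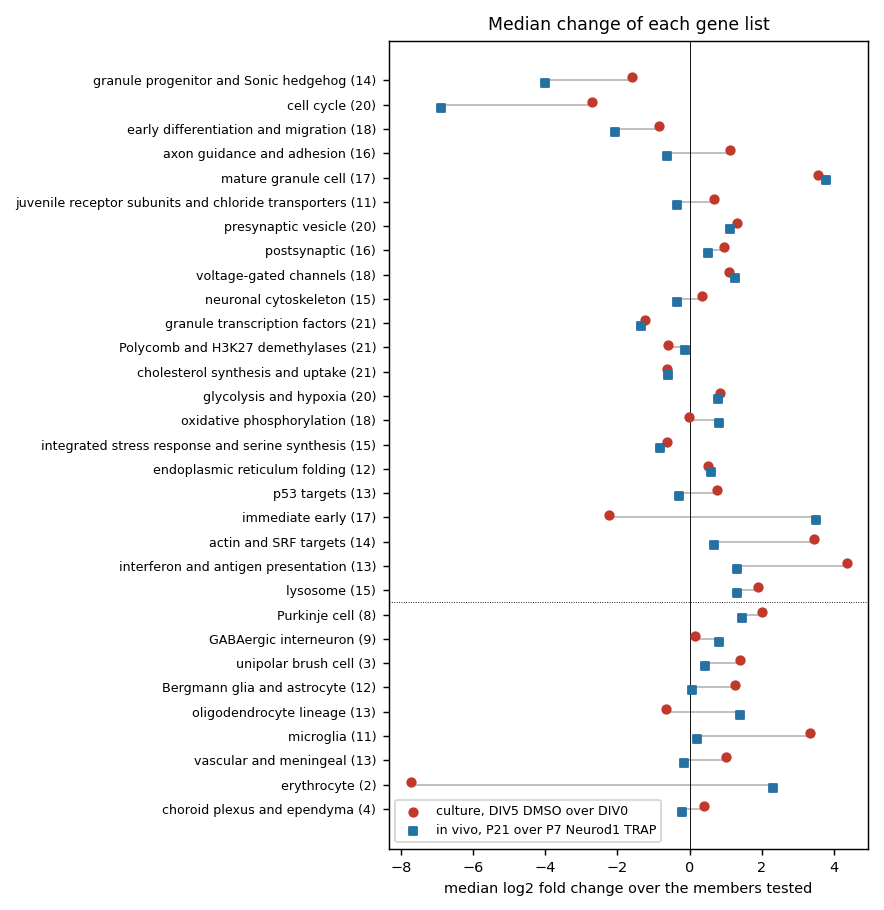
Median log2 fold change of each gene list in culture (circles, DIV5 over DIV0) and in vivo (squares, P21 over P7), with the number of members tested in brackets and cell type markers below the dotted line. The immediate early genes lie on opposite sides of 0 (-2.24 in culture and 3.50 in vivo), and the mature granule cell genes lie together (3.57 and 3.79).

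The number of genes in each class depended on the libraries, and each of the following comparisons shares libraries with the one above. The genes higher at DIV5 and lower at P21 numbered 547 with the Ezh1(wt/wt);Atoh1-Cre cultures, 585 with P7 Math1 TRAP as the in vivo start and 509 with the single P21 and P7 inputs of total cerebellar RNA in place of TRAP. The reverse pattern held 116, 142 and 111 genes in these comparisons, and the genes higher in culture only numbered 699, 382 and 793.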

How the data were processed

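RNA-seq was measured in 39 mouse libraries, of which 14 enter the main comparison, grouped by their titles and labels. Per the labels' protocols, polyadenylated RNA was made into libraries with the NEBNext Ultra II kit and sequenced as 75-bp single-end reads. The deposited values are estimated counts per gene that the authors produced before deposit. Salmon 0.8.2 and mm10 are named in the submitters' processing notes, with no role given, and strand is not given in the sources used here. The estimated counts were rounded to whole numbers. Of 24100 gene IDs, 24045 matched a symbol in RefSeq (GRCm38.p6).

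All 14 libraries were fitted together in edgeR 4.0.16 (R 4.3.3) with TMM scaling, a filter of at least 10 counts (edgeR filterByExpr) and the quasi-likelihood test, with Benjamini-Hochberg adjustment over 16455 genes. The contrasts were DIV5 over DIV0, P21 over P7 and the difference of both. The same fit was run on simulated counts that gave each gene the same mean and spread in all libraries, with known changes at DIV5 only. It recovered most of the larger changes. The simulated systems did not differ in spread as the measured ones did, so the fit was not tested under that difference. CPM and list sums were computed in Python 3.11.15 with pandas 2.3.3. The main fit did not pair the libraries by replicate number.

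Members and gene lists were chosen with earlier results of these data known. The genes described are the 6 with the largest difference in each class with a mean of at least 10 CPM in 1 group, up to 4 per list, and 6 anchor genes of the series. Genes given with values by list beyond these were chosen after their values were seen. Alternatives were library-size scaling, DESeq2 1.42.0, limma 3.58.1, filters, other libraries, a replicate block and leaving out each library. A few genes that the rule names are not reported here.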

Additional observations from a re-analysis of the deposited data

Results flagged for a closer look

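The changes in culture and in vivo differed by the test of the difference itself in 6306 genes that were more upward in culture and 4611 that were more downward. Among these, 654 genes were higher at DIV5 and lower at P21, and 122 were lower at DIV5 and higher at P21.

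Among the 151 genes described, 302 groups of 5 libraries were examined for a library that stood apart from the other 4, and 18 (5.96%) had one, where chance gives about 1 in 20. At P21 these were Npr3 (0.235 CPM), Psrc1 (0.134 CPM) and Efnb1 (8.05 CPM) in replicate 3, Slc38a5 (0.535 CPM) and Cdh15 (55.1 CPM) in replicate 2, and Nrp1 (0.795 CPM) and Slc12a5 (389 CPM) in replicate 4. Replicate 5 at P21 stood apart in Ctsz (18.7 CPM) and Calb1 (153 CPM). Replicate 1 at P21 was the lowest for the myelin gene Mag (33.5 CPM) and for Col1a2 (3.85 CPM). At P7 they were Col28a1 (1.92 CPM) and S100a4 (0 CPM) in replicate 1, Cox4i1 (642 CPM) in replicate 2, Dpysl3 (808 CPM) in replicate 3 and Fabp7 (345 CPM) in replicate 4. Replicate 5 at P7 was the highest for Atf5 (42.6 CPM) and for the microglial gene Tmem119 (0.659 CPM).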

How the results depend on the processing

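For the 151 genes described, the difference was recomputed under other settings and gave 3914 values, of which 3844 kept their direction and their side of the threshold. In 35 the threshold was no longer passed, in 12, mostly of Folr1, it was newly passed, and 23 changed sign with a call before or after. Leaving out each library in turn gave 2114 of these values, of which 9 no longer passed, 3 newly passed and none changed sign.

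With P12 in place of P21 the difference changed sign in Atoh1 (-7.31), Mki67 (-0.31), Ezh2 (-0.78), Mycn (-1.02), Cdc20 (-0.18), Ccnb1 (-0.82), Cdk1 (-0.47), Tubb2b (-0.83), Insm1 (-3.01), Barhl1 (-1.10), Nsdhl (-0.07), Psat1 (-0.02) and Cbln3 (0.26). With P7 Math1 TRAP in place of P7 Neurod1 TRAP, a setting added after seeing the data, it changed sign in Gabra6 (-0.84), Camk4 (-0.89), Vsnl1 (-2.66), Slc12a5 (-1.05), Syn2 (-0.18), Shank1 (-0.87), Calb1 (-0.25), Gad2 (-2.36), Gad1 (-2.34) and Lmx1a (-0.39). The cause was not tested.

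With P12, 1603 genes were higher and 1517 lower in vivo, 221 were higher in culture and lower in vivo, 59 the reverse, 140 higher and 159 lower in vivo only, and 746 lower in both. With P7 Math1 TRAP, 382 genes were higher in culture only and 932 higher in vivo only. With the Ezh1(wt/wt);Atoh1-Cre cultures, also added after seeing the data, 270 were lower in culture only. With inputs in place of TRAP, 297 were lower in culture only, and 286 were higher and 222 lower in vivo only. In each case the cause was not tested.

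With a mean of at least 10 CPM in 1 group, which tests fewer genes, 1342 genes were lower in culture, 411 were higher in culture and lower in vivo, 66 the reverse, 412 higher and 82 lower in culture only, and 325 higher and 343 lower in vivo only. With genes higher in TRAP than in input alone, added after seeing the data, the classes held 44 and 26 opposite genes, 50 higher and 48 lower in culture only, 236 higher and 63 lower in vivo only, and 482 higher and 298 lower in both. With no minimum size of a call, 6222 were higher and 6513 lower in vivo, 6383 higher and 5144 lower in culture, 1549 higher in culture and lower in vivo, 1021 the reverse, 569 lower in culture only, 1176 higher and 1019 lower in vivo only, and 3363 higher and 3360 lower in both. With a minimum log2 fold change of 2 these were 1073 and 1661 in vivo, 2111 and 733 in culture, 166 and 24 opposite, 428 and 56 in culture only, 127 and 214 in vivo only, and 366 and 424 in both.

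Leaving out 1 library gave 3022 to 3175 genes higher and 3386 to 3599 lower in vivo, 3936 to 4127 higher and 1932 to 2201 lower in culture, and 5780 to 6290 differences above and 3960 to 4898 below 0. The opposite classes held 611 to 669 and 105 to 128 genes, culture only 663 to 714 and 160 to 195, in vivo only 479 to 594 and 508 to 611, and both 1340 to 1421 and 1130 to 1227. Where this left 1 culture library in a group, it was assumed to vary like the other groups. With the replicate number as a block, the differences numbered 6201 above and 4558 below 0, and the opposite classes 641 and 115. Whether the numbers pair the libraries was not settled. Same-numbered TRAP libraries had correlations of 0.172, 0.092, -0.057, -0.081 and 0.026, and those with unlike numbers had -0.139 to 0.073. In culture the values rounded to 0 for like and unlike numbers. Genes with a few counts in a group, such as Gabra6 at DIV0 or Atoh1 at DIV5, limit the precision of their fold changes.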
